A study of Mus musculus with 29 samples.

Results

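Runx1, Ncam1, Scn4a, Tnfrsf12a, Uchl1 and Chrna9 were followed as a set of genes linked to the response of the muscle fibre to loss of its nerve, a response that runs along the whole fibre and not only under the synapse. They were chosen by symbol, and all 6 of 6 were found among the 22537 genes of the count table. Poly-A RNA from entire tibialis anterior (TA) muscles of male C57BL/6 mice was sequenced in 29 libraries. The labels name no engineered allele and no treatment, and the groups differed in age: 7 mice at 6m (months), 7 at 24m and 8 at 28m, an age that the labels give as 28 months or older. The first sequencing run held the 24m mice with the 6m mice, and the second held the 28m mice beside newly made libraries of those 7 mice at 6m, so each old group was compared with the 6m libraries of its own run and both comparisons rest on the same 6m animals. Whole muscle holds fibres together with nerve, vessels and other cells, and fewer cells of a type cannot be told apart from less RNA per cell in these data.

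A motor nerve keeps the acetylcholine receptor and its partners at the synapse and holds down a set of genes along the rest of the fibre through electrical activity. When the nerve is cut or silenced, myogenin and other factors that bind E-boxes (CANNTG) switch these genes on along the whole fibre, and receptor subunits and cell adhesion molecules appear outside the synapse. Runx1 and Ncam1 are textbook examples of genes that rise after denervation. Scn4a encodes the adult sodium channel that carries the fibre's action potential.

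At 28m, Uchl1, Chrna9 and Runx1 were higher and Scn4a was lower than at 6m. Uchl1 rose 4.62-fold, Chrna9 3.58-fold and Runx1 3.03-fold, and Scn4a stood at 0.463 times its 6m level. Ncam1 was 1.89 times and Tnfrsf12a 1.42 times the 6m level in the fit, and neither passed the test. Of the 6 genes, 4 passed the quasi-likelihood test of edgeR (Benjamini-Hochberg adjustment), where 47.3% of the 12994 genes tested passed, 24.3% higher and 22.9% lower. All 4 also met the limit for a DEG, an absolute log2 fold change (log2fc) of at least 1, which 5.7% of the genes tested met. Chrna9 had enough counts to be tested mainly through its 28m libraries. At 24m none of the 5 genes tested passed, and the 24m mice differed widely from each other.

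Some libraries stood apart before any gene was compared. Total counts on genes were between 17633475 and 33499162 per library, with a median of 24250878. In 5 of the 8 libraries at 28m, in the 24m library of mouse 4 and in the first 6m library of mouse 4, long genes were low relative to short ones: the slope of a gene's log2 deviation with each doubling of its exonic length was between -0.42 and -0.139 in these 7, and between -0.0304 and 0.157 in the others. The 28m values of the 6 genes and the counts of the gene lists are therefore given also with the trend with length and GC content removed from every library. With it removed, 37.2% of the 12994 genes passed at 28m, 21.6% higher and 15.5% lower, and 5 of the 6 genes passed, 4 higher and 1 lower. The lower gene, Scn4a, then had a log2fc of -0.88 and was under the limit for a DEG. The markers of fibres were abundant in every library, at a sum of 102100 to 164900 CPM (counts scaled by TMM to a common library size) over 8 genes.

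**Figure D1:**
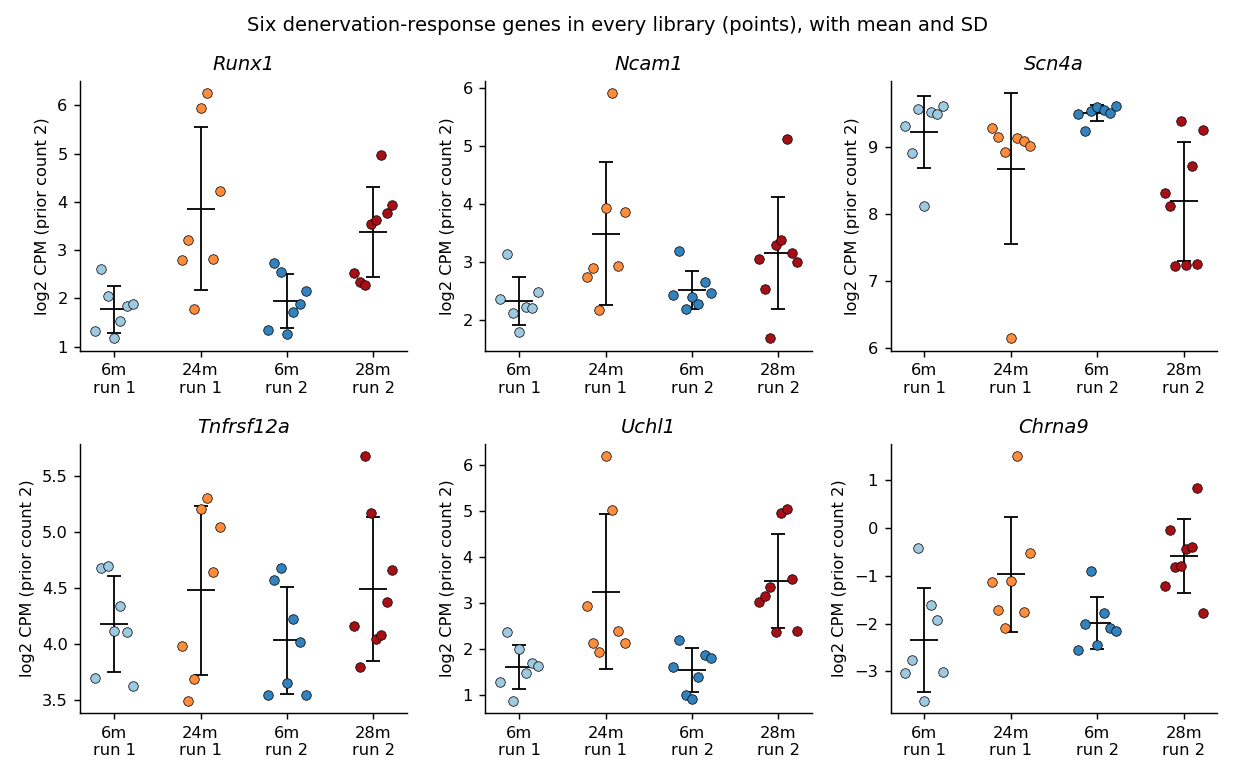
Log2 CPM (prior count 2) of the 6 genes in each of the 29 libraries (points) by group on the horizontal axis, with the group's mean and SD as bars. All 8 mice at 28m lie above the 7 libraries of the second run at 6m for Uchl1, 6 of 8 lie below them for Scn4a, and 2 or 3 mice at 24m lie far above the rest for Runx1, Ncam1 and Uchl1.

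Runx1, a transcription factor that is induced by denervation and limits the wasting of the denervated fibre, lies on the minus strand of chr16:92601466-92826149 (GRCm38, the assembly also called mm10) with 12025 exonic bases. In the 7 second-run libraries at 6m its level was between 2.30 and 6.59 CPM with a median of 3.59 CPM. At 28m it was between 4.79 and 31.1 CPM with a median of 11.9 CPM. Mice 1, 2 and 3 at 28m, at 5.67, 4.99 and 4.79 CPM, lay within the 6m range, and the other 5 lay above all 6m libraries, with mouse 6 highest. The mean was 12.4 ± 8.62 CPM (SD, n = 8) against 4.04 ± 1.63 CPM (n = 7). The log2fc was 1.60 with a standard error (SE) of 0.39 and an adjusted p of 0.00426 by the quasi-likelihood test of edgeR (Benjamini-Hochberg adjustment). Without mouse 6 it was 1.25 (adjusted p = 0.00549 in the same test), and with the length and GC trend removed it was 2.0 (adjusted p = 0.000832).

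The 24m mice split further. Mice 4 and 5 had 61.4 and 76.1 CPM of Runx1, mouse 7 had 18.8 CPM, and the remaining 4 were between 3.35 and 9.12 CPM. The 6m libraries of the same run were between 2.17 and 5.98 CPM. Thus 6 of 7 mice lay above all 6m libraries, and the highest was 21.7 times the 6m mean of 3.51 ± 1.28 CPM (n = 7). The log2fc of 2.86 had an SE of 0.65, and the adjusted p by edgeR's quasi-likelihood test was 0.121. Without mice 4 and 5 the log2fc was 1.35 with an SE of 0.36 and an adjusted p of 0.186 in that test.

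Partners of Runx1 were few. Runx2, a related factor better known from bone, was higher at 28m with a log2fc of 0.79 and an adjusted p of 0.00974 by edgeR's quasi-likelihood test, at 2.14 ± 0.454 CPM (n = 8) against 1.20 ± 0.472 CPM (n = 7). Cbfb, the partner subunit of Runx proteins, had a log2fc of 0.04 (adjusted p = 0.815 in the same test). Runx3 had at most 27 counts in any library and was under the filter on low counts. Of the 2 partners tested at 28m, 1 was higher, also with the length and GC trend removed, and at 24m none of the 2 passed.

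Uchl1, a ubiquitin hydrolase that is abundant in neurons, lies on the plus strand of chr5:66676091-66687234 with 1632 exonic bases. At 6m its level was between 1.79 and 4.53 CPM in the second run, with a median of 2.98 CPM. At 28m it was between 5.10 and 32.7 CPM with a median of 9.49 CPM, so that the lowest old mouse lay above the highest at 6m. It was the only one of the 6 genes whose groups did not overlap at 28m, which held for 12.4% of all genes tested. Mice 5 and 6 were highest, at 30.9 and 32.7 CPM. The log2fc was 2.21 (SE 0.42, adjusted p = 0.0012 by edgeR's quasi-likelihood test), and 1.86 with the length and GC trend removed (adjusted p = 0.00241).

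At 24m, Uchl1 was at 73.1 CPM in mouse 4 and 32.5 CPM in mouse 5, and between 3.73 and 7.51 CPM in the other 5 mice. The 6m libraries of the first run were between 1.74 and 5.06 CPM. The log2fc was 2.54 with an SE of 0.68 (adjusted p = 0.2 by edgeR's quasi-likelihood test). Without mouse 4 it was 1.60, and without mice 4 and 5 it was 0.67. No member had groups that did not overlap at 24m, where 0.588% of all genes tested did.

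Uchl1 is also a marker of nerve, so the markers of neurons were examined beside it. Of 8 markers, 3 passed the filter at 28m and 1 was called, Tubb3, a neuronal tubulin, with a log2fc of 0.93 (adjusted p = 0.0252 by edgeR's quasi-likelihood test), which was 0.67 with the length and GC trend removed and missed the threshold (adjusted p = 0.102). The sum of the 8 markers was between 2.62 and 7.01 CPM at 28m and between 2.75 and 4.70 CPM at 6m. The defining markers Snap25, Nefl and Elavl4 had at most 2, 4 and 4 counts in any library. Mouse 6 at 28m, with the highest Uchl1 of its group, had a sum of 3.65 CPM, and mouse 4 at 24m had the highest sum of all, 8.46 CPM. The part of nerve RNA in the Uchl1 values was not tested.

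Of 6 other genes of ubiquitin release and supply, all tested at 28m, 5 were higher and none was lower, where 24.3% of all genes tested were higher, with a median log2fc of 0.67 against 0.01 over all genes. With the length and GC trend removed, 3 of the 6 were higher, where 21.6% of all genes were, with a median of 0.37 against 0.04. Uchl3 and Uchl5, hydrolases related to Uchl1, rose by 0.63 and 0.36 on the log2 scale (adjusted p = 0.00163 and 0.0109 by edgeR's quasi-likelihood test). The ubiquitin genes Ubb and Rps27a rose by 0.81 and 1.08. Without the trend Uchl3 and Rps27a still passed, at 0.48 and 0.61, and Uchl5 and Ubb did not, at 0.08 and 0.42. Rps27a encodes ubiquitin fused to a ribosomal protein, and such genes have near-identical copies in the genome that can take part of their reads. None of the 6 passed at 24m.

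Chrna9 encodes the alpha9 subunit of nicotinic receptors, best known from hair cells of the inner ear. It lies on the plus strand of chr5:65934921-65977326 with 3026 exonic bases, and it was the scarcest of the 6 genes. Second-run libraries at 6m held 2 to 8 counts, or 0.0904 to 0.451 CPM with a median of 0.154 CPM. Libraries at 28m held 5 to 45 counts, or 0.211 to 1.69 CPM with a median of 0.573 CPM. Mouse 7 was highest and 6 of the 8 mice lay above all at 6m. The log2fc was 1.84 with an SE of 0.44 (adjusted p = 0.00395 by edgeR's quasi-likelihood test), and it was 1.70 with the length and GC trend removed (adjusted p = 0.00565). At 2 to 8 counts, counting error alone is a large part of each 6m value. Chrna9 was kept by the filter on low counts mainly through its 28m libraries, the group where it was high. It fell under that filter when mouse 2, 3, 4, 5, 6 or 7 at 28m was left out.

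In the first run, Chrna9 was under the filter and its values were compared singly. The 6m libraries held 0 to 15 counts, and the 0 in mouse 4 allows up to 3 counts. At 24m, mouse 5 held 87 counts or 2.75 CPM, mouse 7 had 0.614 CPM and the other 5 mice were between 0.154 and 0.384 CPM. Only mouse 5 lay above all 6m libraries, since mouse 3 at 6m was at 0.670 CPM. Mean log2 CPM was higher by 1.37 at 24m (unadjusted p = 0.0402, two-sided exact permutation test over 3432 assignments). Without mouse 5 the difference was 0.958 (exact permutation p = 0.0804), and p was under 0.05 in 6 of 14 tests that left out 1 library. It was between 0.0618 and 0.0804 without mouse 1, 4, 5 or 7 at 24m or mouse 1, 2, 4 or 7 at 6m (exact permutation tests). In the fits that kept Chrna9 it did not pass, with an adjusted p of 0.238 in DESeq2, 0.396 in edgeR with no filter and 0.136 in edgeR's fit of all 29 libraries.

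Chrna9 was highest at 28m in mouse 7, which also had the highest sum of 7 immune markers, 463 CPM, against 53.7 to 90.9 CPM in the other 7 mice and 39.2 to 141 CPM at 6m. In the 24m group the immune sum was highest in mouse 2, at 391 CPM, where Chrna9 was at 0.225 CPM, and it was 98.4 CPM in mouse 5. Of 5 immune markers tested at 28m none was called, and the part of immune cells in the Chrna9 values was not tested. Chrna10, which pairs with Chrna9 in hair cells, had 14.0 ± 3.34 CPM (n = 8) against 15.1 ± 1.21 CPM (n = 7), a log2fc of -0.14 (adjusted p = 0.35 by edgeR's quasi-likelihood test). Of the 8 genes for neuronal nicotinic subunits, 2 passed the filter at 28m and none was called.

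The promoters of the 3 genes that rose are shown because E-boxes are where myogenic factors bind in genes of the denervation response. The windows come from RefSeq (GRCm38.p6), run from before the start that RefSeq gives to just past it, and are written 5′ to 3′ along the gene's strand with each CANNTG in capitals. Of the 6 genes, 5 were matched to a window. No window for Ncam1 was found in the set of promoters used here. The Chrna9 window lies inside the span given for that gene above, since the start that RefSeq gives differs from that of GENCODE, from which the spans were taken.
Runx1, upstream promoter, chr16:92826025-92826324, minus strand: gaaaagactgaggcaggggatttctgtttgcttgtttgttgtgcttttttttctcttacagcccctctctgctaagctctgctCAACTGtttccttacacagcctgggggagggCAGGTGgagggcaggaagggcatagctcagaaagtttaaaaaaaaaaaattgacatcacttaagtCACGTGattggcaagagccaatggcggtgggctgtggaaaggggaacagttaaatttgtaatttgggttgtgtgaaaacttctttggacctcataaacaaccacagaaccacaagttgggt
Uchl1, chr5:66675871-66676170, plus strand: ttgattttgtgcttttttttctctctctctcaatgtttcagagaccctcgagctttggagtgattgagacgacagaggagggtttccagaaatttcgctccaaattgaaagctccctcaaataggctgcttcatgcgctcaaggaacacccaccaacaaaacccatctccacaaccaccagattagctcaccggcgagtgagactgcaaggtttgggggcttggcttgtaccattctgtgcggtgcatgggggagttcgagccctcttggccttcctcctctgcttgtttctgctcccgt
Chrna9, chr5:65966874-65967173, plus strand: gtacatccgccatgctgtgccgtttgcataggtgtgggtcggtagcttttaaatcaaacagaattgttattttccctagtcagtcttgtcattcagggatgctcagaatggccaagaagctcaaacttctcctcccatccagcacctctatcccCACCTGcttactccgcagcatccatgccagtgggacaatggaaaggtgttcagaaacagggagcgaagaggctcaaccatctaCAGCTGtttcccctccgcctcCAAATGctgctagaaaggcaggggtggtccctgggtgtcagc

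The letters CANNTG read the same on both strands and occurred in 72.3% of 32851 promoter windows of the same length. The upstream Runx1 window and the Chrna9 window each held 3 of them, a number that 17.6% of windows reached. One of those of Chrna9 was CAGCTG, an instance of CANNTG that 16.3% of windows held. Uchl1, Scn4a and the second Runx1 window held none, and Tnfrsf12a held 1. TGTGGT, the core letters bound by Runx proteins, was searched on both strands and does not overlap CANNTG. It was found in 16.8% of windows, and among the 6 windows of these genes only the upstream Runx1 window held it, in 2 places, as 1.8% of windows did. These are matches of letters and no binding was measured.

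Ncam1 encodes a cell adhesion molecule that sits at the synapse of the innervated fibre and spreads over its surface after denervation. It lies on the minus strand of chr9:49502136-49798925 with 8664 exonic bases. At 6m it was between 4.51 and 9.02 CPM in the second run, with a median of 5.33 CPM. At 28m it was between 3.13 and 34.95 CPM with a median of 8.51 CPM. Mouse 6 stood alone at the top, mice 4 and 5 were at 9.71 and 10.4 CPM, and mouse 3 lay below all at 6m. The log2fc was 0.92 with an SE of 0.38 and an adjusted p of 0.0578 by edgeR's quasi-likelihood test, which misses the threshold.

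That call turned on single libraries and on the length trend. With the length and GC trend removed, the log2fc of Ncam1 was 1.23 (adjusted p = 0.0106 by edgeR's quasi-likelihood test). It passed without mouse 2 or mouse 3 at 28m (log2fc 1.02 and 1.06) and without mouse 2 at 6m (1.06). Without mouse 6 at 28m it was 0.39 with an adjusted p of 0.162.

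At 24m, Ncam1 was at 60.3 CPM in mouse 5, 15.1 CPM in mouse 4 and 14.4 CPM in mouse 7, and between 4.42 and 7.60 CPM in the other 4. The 6m libraries of that run were between 3.38 and 8.71 CPM, so 3 of 7 mice lay above them. These were the same 3 mice that had the most Runx1. The log2fc was 1.66 with an SE of 0.51 (adjusted p = 0.259 by edgeR's quasi-likelihood test), 0.83 without mouse 5 and 0.64 without mice 4 and 5.

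Ncam1 is also made by satellite cells and by Schwann cells that do not myelinate. The 5 satellite cell markers summed to 24.1 to 41.8 CPM at 28m and 36.5 to 44.8 CPM at 6m. Of all genes tested, 22.9% were lower at 28m, or 15.5% with the length and GC trend removed. Of the 4 satellite cell markers tested, 2 were lower, with or without that trend. These were Pax7, the defining factor of these cells, with a log2fc of -1.60 (adjusted p = 0.00718 by edgeR's quasi-likelihood test), and Chodl at -0.61 (adjusted p = 0.0138). The 9 Schwann cell markers summed to 47.1 to 83.0 CPM at 28m and 59.0 to 81.3 CPM at 6m, and 1 of them was called higher, or 2 with the length and GC trend removed. Of all genes tested 24.3% were higher, or 21.6% with the trend removed, so these counts are below or near the share of all genes. Mouse 6 at 28m and mouse 5 at 24m, which had the most Ncam1 of their groups, had the lowest Schwann sums of theirs, at 47.1 and 44.6 CPM. The part of satellite and Schwann cells in the Ncam1 values was not tested. Of the genes that act with Ncam1, St8sia4, an enzyme that adds polysialic acid to it, was lower at 28m with a log2fc of -0.59 (adjusted p = 0.0123), as was the kinase Fyn at -0.33 (adjusted p = 0.0485 in edgeR's test). Fgfr1 was at 0.01 and was not called, so that 2 of the 3 genes tested were lower, where 22.9% of all genes were. With the length and GC trend removed neither of these passed, at -0.10 and -0.27, while Fgfr1 was higher at 0.50 (adjusted p = 0.00226 in edgeR's test). Ncam2 had at most 3 counts in any library.

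Scn4a lies on the minus strand of chr11:106318592-106353288 with 7041 exonic bases. Second-run libraries at 6m were close together, between 606 and 784 CPM with a median of 743 CPM. At 28m the range was 149 to 668 CPM with a median of 298 CPM. Mice 3, 5 and 7 were lowest, at 149.0, 151.1 and 153.0 CPM, and only mice 4 and 8 reached the 6m range. The mean was 344 ± 207 CPM (n = 8) against 732 ± 59.7 CPM (n = 7). The log2fc was -1.11 with an SE of 0.31 (adjusted p = 0.00876 by edgeR's quasi-likelihood test).

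The level of Scn4a followed the length slope of the library. Across the 8 mice at 28m, r with the slope was 0.981 (exact permutation p = 0.000496, 0.00298 after Benjamini-Hochberg adjustment over the 6 genes) and Spearman's rho was 0.905 (exact permutation p = 0.00456, adjusted 0.0274). Without the 2 mice farthest from the median slope, r was 0.960 (exact permutation p = 0.00556). None of the other 5 genes passed this adjusted test at either age. At 24m, r for Scn4a was 0.968 (exact permutation p = 0.0312, adjusted 0.187) and rho was 0.607 (exact permutation p = 0.167, adjusted 0.5). Mouse 4 had a slope of -0.42 and 70.3 CPM of Scn4a against 487 to 627 CPM in the other 6 mice, and without the 2 mice farthest from the median r was 0.668 (exact permutation p = 0.242), so the 24m relation rests on those mice.

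Mouse 4 at 6m had 278 CPM of Scn4a in its first library, whose slope was -0.193, and 777 CPM in its second library, whose slope was 0.128. In the other 6 mice at 6m both libraries differed by at most 0.324 on the log2 scale. The part of the length trend in the Scn4a values was not tested apart from its removal. With the length and GC trend removed, Scn4a at 28m had a log2fc of -0.88 (adjusted p = 0.00964 by edgeR's quasi-likelihood test), which passed the test and was under the limit for a DEG. Against the first-run 6m libraries, which include that first library of mouse 4, it was -0.89 with an adjusted p of 0.0665. At 24m the log2fc was -0.39 with an SE of 0.36 (adjusted p = 0.637), and -0.20 without mouse 4, the only one of 7 mice that lay below all at 6m.

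**Figure D2:**
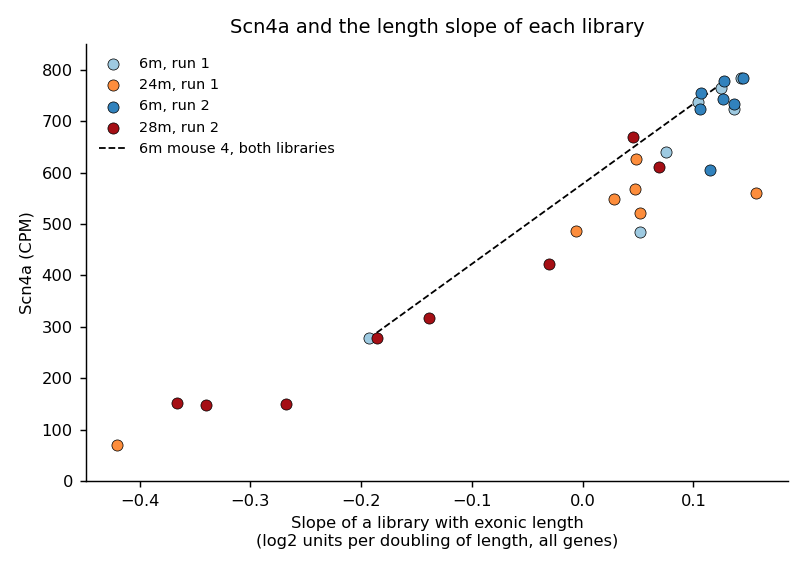
CPM of Scn4a against the slope of each library with exonic length (log2 units per doubling of length over 13351 genes), one point for each of the 29 libraries, with a dashed line between both libraries of mouse 4 at 6m. Libraries at 28m with a slope under -0.1 hold 149 to 317 CPM, and the 7 second-run libraries at 6m sit together at slopes of 0.106 to 0.145.

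Of 8 other genes of sodium channels and membrane excitability, 2 were higher and 2 were lower at 28m, shares near the 24.3% and 22.9% of all genes tested, with a median log2fc of 0.32 against 0.01 over all genes tested. The 2 that were lower were Clcn1, the chloride channel of the resting fibre, at a log2fc of -1.0 (adjusted p = 0.0206 by edgeR's quasi-likelihood test), and Kcnj2, a potassium channel, at -0.54 (adjusted p = 0.0154). Once the length and GC trend was removed, 2 were higher and 2 lower, with Clcn1 at -0.88 (adjusted p = 0.0266) and Kcnj2 at -0.50 (adjusted p = 0.0245). At 24m none of the 8 passed.

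Tnfrsf12a encodes Fn14, the receptor for the cytokine TWEAK, which denervated muscle is known to induce. It lies on the minus strand of chr17:23675445-23677468 with 1932 exonic bases. At 6m it was between 11.6 and 25.6 CPM in the second run, with a median of 16.1 CPM. At 28m it was between 13.7 and 51.1 CPM with a median of 19.2 CPM, and 2 of 8 mice, mouse 3 at 51.1 and mouse 4 at 35.8 CPM, lay above all at 6m. The log2fc was 0.50 with an SE of 0.28 (adjusted p = 0.145 by edgeR's quasi-likelihood test), and it was 0.27 with the length and GC trend removed and 0.275 without mouse 3. At 24m, mice 4, 5 and 7 were at 36.8, 39.5 and 32.9 CPM, above the highest 6m library at 25.8 CPM, and the other 4 were between 11.1 and 24.9 CPM. The log2fc there was 0.39 with an SE of 0.29 (adjusted p = 0.571), and 0.05 without mice 4 and 5.

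Of 10 genes of the TWEAK pathway, 3 were higher and 4 lower at 28m, where 24.3% of all genes tested were higher and 22.9% lower, so the share higher is near that of all genes. The list had a median log2fc of -0.002 against 0.01 over all genes tested. The ligand gene Tnfsf12 had a log2fc of 0.43 (adjusted p = 0.113 by edgeR's quasi-likelihood test). The NF-kB genes Nfkb2 and Relb rose by 0.76 and 0.58 on the log2 scale (adjusted p = 0.00353 and 0.00278), and Birc3, an inhibitor of apoptosis, by 0.33. Map3k14, the kinase that starts processing of Nfkb2, was lower at -0.52, as were the adaptors Traf3 and Traf6 at -0.75 and -0.59 and Cd163, a macrophage receptor for TWEAK, at -0.79. After removal of the length and GC trend the same 3 were higher, against 21.6% of all genes higher and 15.5% lower, and Traf3 (-0.47, adjusted p = 0.0099) and Cd163 (-0.63, adjusted p = 0.0495) were lower, while Traf6 (-0.35) and Map3k14 (-0.22) did not pass. Fibroblasts and vessels also make Fn14, and 3 of 5 fibroblast markers and 4 of 4 endothelial markers were lower at 28m, against 0 and 3 with the trend removed. Their sums were 310 to 1132 CPM and 148 to 244 CPM at 28m against 523 to 2740 CPM and 305 to 328 CPM at 6m. The part of these cells in the Tnfrsf12a values was not tested.

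**Figure D3:**
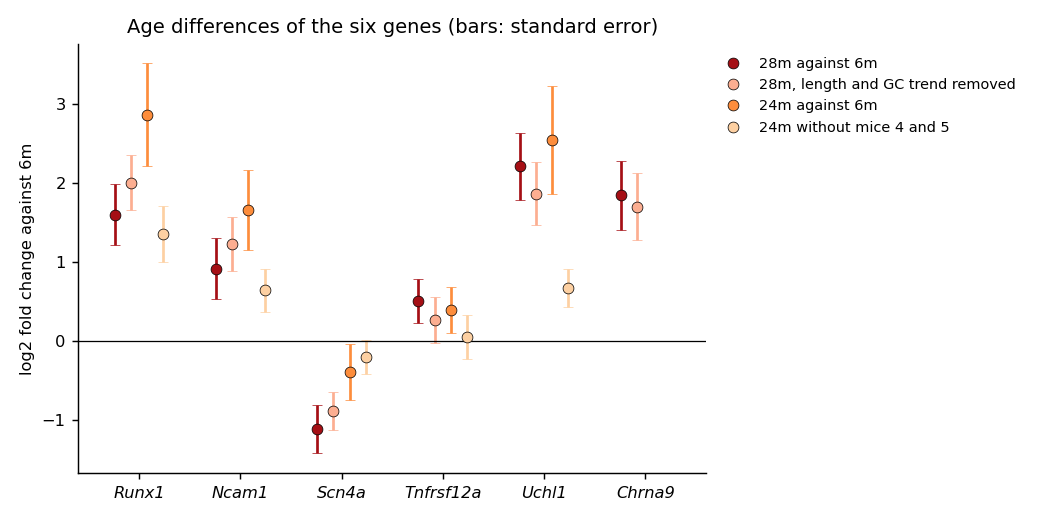
Log2 fold change against the 6m libraries of the same run (vertical axis, bars are the standard error) for each of the 6 genes at 28m, at 28m with the length and GC trend removed, at 24m, and at 24m without mice 4 and 5. Runx1, Ncam1 and Uchl1 at 24m drop from 2.86, 1.66 and 2.54 to 1.35, 0.64 and 0.67 when both mice are left out, and Chrna9 has no value at 24m because it was under the filter.

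At 24m, 0.084% of the 13103 genes tested passed the quasi-likelihood test of edgeR (Benjamini-Hochberg adjustment), 11 genes in all, and 0 of the 5 members tested. Before adjustment, p was under 0.05 for 1546 genes. DESeq2 called 1.4% of the 15367 genes it tested at 24m and 3 of the 6 members, Runx1 (adjusted p = 0.000313), Ncam1 (0.0447) and Uchl1 (0.00551). A fit of all 29 libraries, which shares its estimate of the spread between groups, called 1.13% of 13455 genes, among them Runx1 (adjusted p = 0.008) and Uchl1 (0.027) by edgeR's test. That fit counts both libraries of each 6m mouse as if they were separate animals.

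The difference between the 28m and the 24m effect was tested directly over 13455 genes, and 0% of them passed the quasi-likelihood test of edgeR (Benjamini-Hochberg adjustment). Before adjustment, p was under 0.05 for 1611 genes, and limma-voom also called 0, without and with the mouse as a block. The edgeR fit counted both libraries of each 6m mouse as separate animals. Without mouse 4 at 24m, 1657 of 13492 genes passed (12.3%), and none of the 6 members. For Runx1 the 28m effect minus the 24m effect was -1.27 on the log2 scale (SE 0.75, adjusted p = 0.468), and for Scn4a it was -0.71 (adjusted p = 0.519). The other 4 differences were between -0.74 and 0.12. An effect that passed at 28m and not at 24m is therefore not shown to differ between the ages for any of the 6 genes.

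The same 3 mice at 24m carried the high values of several genes. Over the 7 mice, r of log2 CPM between Runx1 and Ncam1 was 0.905 (exact permutation p = 0.000595, 0.00893 after adjustment over the 15 pairs of genes), with a rho of 0.964 and an r of 0.980 without the 2 mice farthest from the median. Ncam1 and Chrna9 had an r of 0.956 (exact permutation p = 0.00397, adjusted 0.0298) and a rho of 0.821 (adjusted 0.103), and an r of 0.860 without 2 mice. These were the 2 of 15 pairs with an adjusted p under 0.05, and 11 of the 15 had a positive r. At 28m the same pair of Runx1 and Ncam1 was the only one of 15 with an unadjusted p under 0.05, with an r of 0.865 (exact permutation p = 0.00342, adjusted 0.0513) and a rho of 0.690 over 8 mice, and 0 passed adjustment.

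High mice were not high for every gene. Mouse 5 at 24m had the most Runx1, Ncam1, Tnfrsf12a and Chrna9 of its group, while mouse 4 had the most Uchl1 and the least Scn4a. At 28m, mouse 6 led for Runx1, Ncam1 and Uchl1, mouse 7 for Chrna9 and mouse 3 for Tnfrsf12a, and mouse 3 had the least Runx1, Ncam1 and Scn4a.

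The 7 mice at 6m were measured in both runs, which shows how far each gene's level in one animal repeats. Comparing the 6m libraries of run 2 with those of run 1, 0% of 12884 genes passed the quasi-likelihood test of edgeR (Benjamini-Hochberg adjustment), 357 had an unadjusted p under 0.05, and the log2fc of the 5 members tested was between -0.13 and 0.22. That fit did not pair the libraries by mouse, and no gene passed with the mouse as a block either. Within mice, Runx1 was higher in run 2 in every mouse, by 0.01 to 0.494 on the log2 scale. Tnfrsf12a differed by -0.467 to -0.014 and was lower in every mouse, while the other members moved both ways. Runx1 kept the order of the 7 mice exactly, with a rho of 1.0 and an r of 0.961 (exact permutation p = 0.000198, 0.00119 after adjustment over the 6 genes; 0.952 without the 2 mice farthest from the median). For Tnfrsf12a r was 0.953 (exact permutation p = 0.00258, adjusted 0.00754) with a rho of 0.964, and 0.861 without those 2 mice. For Chrna9 r was 0.923 (exact permutation p = 0.00377, adjusted 0.00754) with a rho of 0.929, and it fell to 0.630 without 2 mice, of which mouse 3 had the highest value in both runs.

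The other 3 genes did not pass. Ncam1 had an r of 0.818 (exact permutation p = 0.0502, adjusted 0.0753) with a rho of 0.643 and an r of 0.364 without 2 mice, and mouse 2 was highest in both runs at 8.71 and 9.02 CPM. Uchl1 had an r of 0.497 (exact permutation p = 0.257, adjusted 0.309) with a rho of 0.429 and an r of -0.526 without 2 mice, and its largest gap was in mouse 4, at 3.91 and 1.79 CPM. Scn4a had an r of 0.114 (exact permutation p = 0.768, adjusted 0.768) with a rho of 0.429 and an r of 0.798 without 2 mice, and mouse 4 again set the gap. The median difference between both libraries of a mouse was 0.04 on the log2 scale for Scn4a and 0.14 for Runx1.

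**Figure D4:**
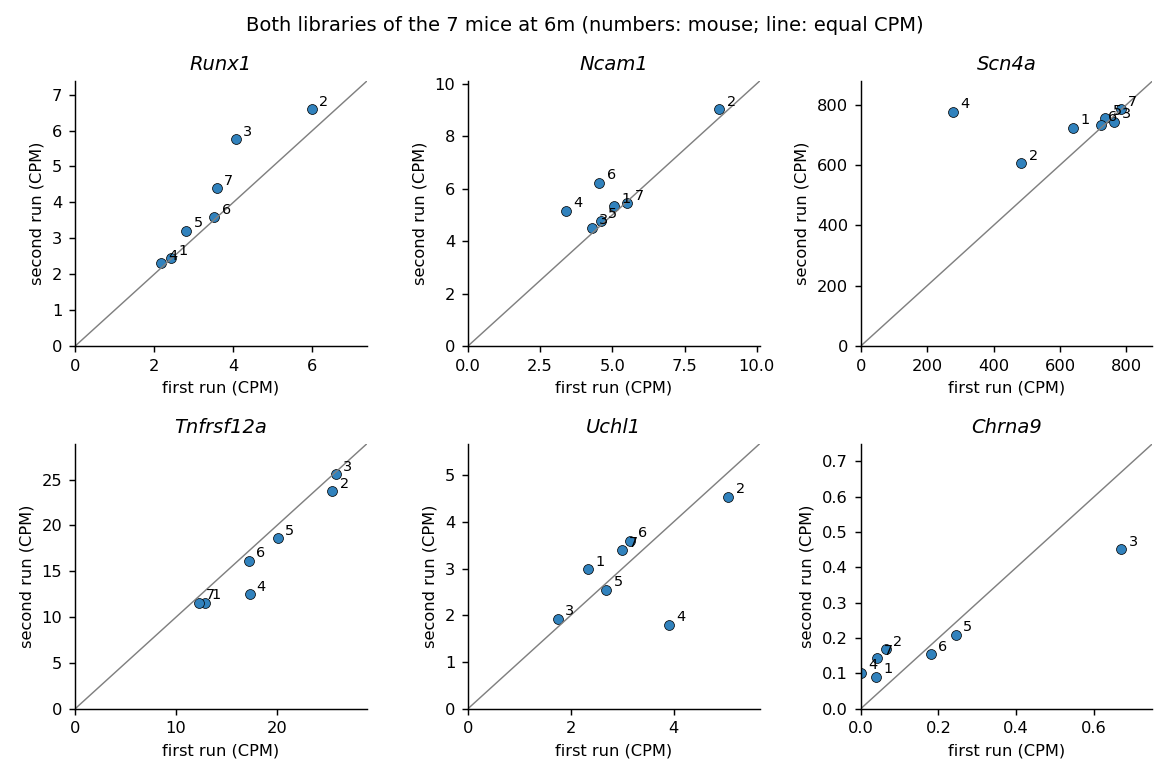
CPM of the 6 genes in the first run (horizontal axis) and the second run (vertical axis) for each of the 7 mice at 6m, numbered, with a line of equal CPM. Runx1 keeps the order of the 7 mice (rho of 1.0) and Tnfrsf12a nearly so (0.964), and mouse 4 leaves the line for Scn4a (278 and 777 CPM) and Uchl1 (3.91 and 1.79 CPM).

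Per kilobase of exon the order of the genes was the same at 6m and at 28m. In the second-run libraries at 6m the mean level was 103.9 CPM per kb for Scn4a, 8.84 for Tnfrsf12a, 1.82 for Uchl1, 0.667 for Ncam1, 0.336 for Runx1 and 0.0622 for Chrna9. At 28m it was 48.8, 12.8, 8.61, 1.28, 1.03 and 0.225 CPM per kb in the same order. Among neighbours in this order, the ranges of Ncam1 and Runx1 overlapped at 6m and the others were apart, and at 28m every neighbouring pair overlapped.

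Of 20 other genes known to respond to denervation, all tested at 28m, 11 were higher and none was lower, where 24.3% of all genes tested were higher, and their median log2fc was 1.22 against 0.01 over all genes. The list was chosen with earlier results of these data known, so its share is a description and cannot serve as a test. Removing the length and GC trend left 10 higher and none lower, where 21.6% of all genes were higher, at a median of 1.25 against 0.04, and Chrnb1 (0.49, adjusted p = 0.0585 by edgeR's quasi-likelihood test) was the one that no longer passed. Of the receptor subunits, the fetal subunit Chrng had a log2fc of 3.52 (adjusted p = 0.00322 by edgeR's quasi-likelihood test), Chrna1 of 1.84 (adjusted p = 0.00489) and Chrnb1 of 0.68 (adjusted p = 0.00522), and Chrnd was at 1.47 and missed the threshold (adjusted p = 0.0566). Myogenin (Myog), which drives the response, was at 10.6 ± 8.48 CPM (n = 8) against 2.45 ± 1.5 CPM (n = 7), a log2fc of 2.09 (adjusted p = 0.00248). Gadd45a and Cdkn1a, which act in growth arrest and stress, rose by 2.11 and 2.20, Gdf5, a ligand that limits denervation atrophy, by 3.25, and Ankrd1, Sln and Ampd3 by 2.67, 4.29 and 0.98 on the log2 scale.

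The 9 that did not pass at 28m included Musk (log2fc -0.62), Hdac4 (-0.72), Myod1 (0.40) and the ubiquitin ligases of atrophy, Trim63 (log2fc 0.26, adjusted p = 0.13) and Fbxo32 (-0.31, adjusted p = 0.113 by edgeR's quasi-likelihood test). At 24m none of the 20 passed, at a median log2fc of 2.20 against 0.03 over all genes tested. For Chrng the 24m log2fc was 4.97 (adjusted p = 0.121) and for Myog it was 2.41 (adjusted p = 0.161). The 24m and 28m values share the 6m animals.

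**Figure D5:**
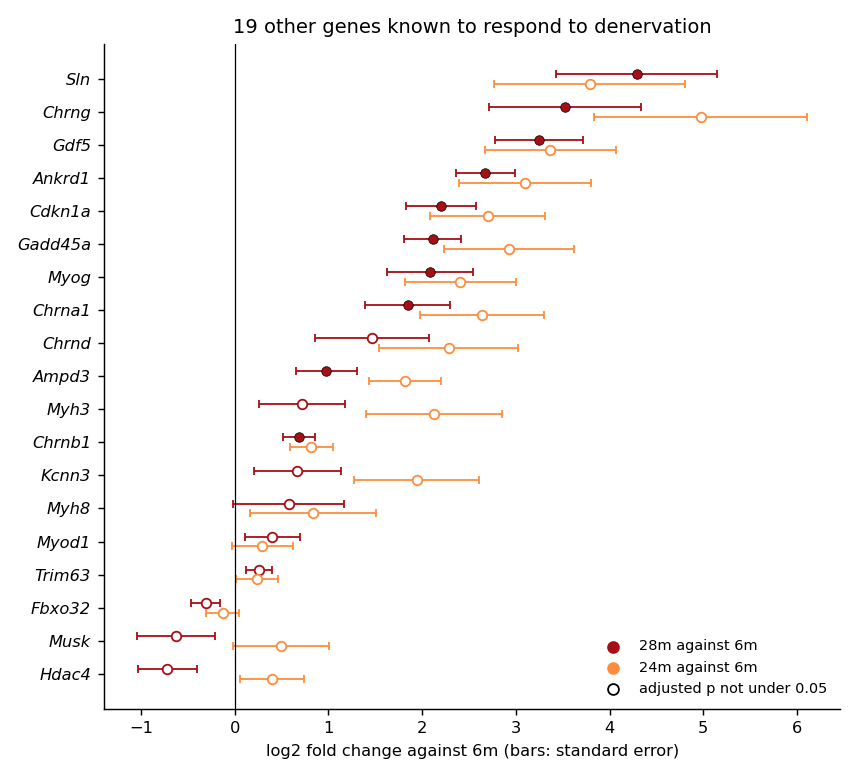
Log2 fold change against 6m (horizontal axis, bars are the standard error) of 19 of the 20 other genes known to respond to denervation, at 28m in red and at 24m in orange, with filled points for an adjusted p under 0.05. At 28m 10 of the 19 points are filled, from Chrnb1 at 0.68 to Sln at 4.29, and at 24m none is filled.

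Genes whose level was most like each member's were found from log2 CPM after each group's mean was subtracted, over the 29 libraries and 13454 genes. For Runx1 they included Cdkn1a (r = 0.946) and Ugcg (0.916), and for Ncam1 they were Chrnd (0.929), Rap1gap2 (0.924) and Arpp21 (0.922). Uchl1 was most like Hes6 (0.928), Rab13 (0.913) and Trit1 (0.912), and Scn4a most like Hnrnpul1 (0.991), Nt5c1a (0.989) and Prpf8 (0.987). For Tnfrsf12a the highest r was 0.757, with Hspb1, and for Chrna9 it was 0.775, with Ttyh1. The 29 libraries share 7 animals between runs and share the length trend, so these are descriptions. Of the genes named here, Cdkn1a, Hes6, Rab13, Trit1 and Hspb1 were higher at 28m, with a log2fc of 2.20, 1.09, 1.19, 0.56 and 0.62 by edgeR's quasi-likelihood test, and Hnrnpul1, Nt5c1a and Prpf8 were lower, at -0.66, -1.86 and -0.78. With the length and GC trend removed Cdkn1a, Hes6 and Rab13 stayed higher (2.18, 0.83 and 0.90) and Nt5c1a and Prpf8 stayed lower (-2.09 and -0.53), Trit1 (0.24), Hspb1 (0.20) and Hnrnpul1 (-0.33) did not pass, and Ugcg (0.44) and Arpp21 (1.0) did.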

How the data were processed

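Poly-A RNA of whole TA muscle was sequenced on a NextSeq instrument in 29 libraries: run 1 held 7 mice at 24m and 7 at 6m, and run 2 held 8 mice at 28m and those 7 mice at 6m again. Per the labels, each library began with a smaller amount of RNA than the methods state, and the series' design text gives the sizes of the 24m and 28m groups the other way round from the sample labels, which were used. The authors aligned single-end reads to mm10 with STAR 2.5.4b, counted reads per gene of a UCSC annotation, and deposited raw counts without normalization. The submitters' processing notes also name bcl2fastq 2.20, R 3.5.1 and DESeq2 1.22.2. The strand setting of counting is not given in the sources used here, so reads of Runx1, Ncam1 and Uchl1 cannot be told apart from those of the antisense genes that overlap 106, 417 and 295 of their exonic bases.

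Differential expression used edgeR 4.0.16 under R 4.3.3 (filterByExpr, TMM, quasi-likelihood F test, Benjamini-Hochberg adjustment over all genes tested, threshold 0.05; DEG also an absolute log2fc of at least 1). Each old group was compared with the 6m libraries of its run. The difference between both age effects used all libraries in one fit. Fits of all libraries treated both libraries of a 6m mouse as independent, except where the mouse was a block. CPM of single libraries was TMM-scaled over all 29, and log2 CPM used a prior count of 2. Members under the filter and relations across mice were tested with two-sided exact permutation tests (SciPy 1.17.1), and depth of 17633475 to 33499162 counts sets a floor of 3 counts, which covers counting error only. Both libraries of a 6m mouse come from the same animal, taken from the repeat mark in their labels. Their deviations from the group means correlated at 0.218 to 0.814 across genes. Mice are numbered within a group in accession order. Positions, exonic lengths and GC content were taken from the GENCODE annotation of GRCm38 (20202 of 22537 symbols matched directly, 1956 by synonym, 379 not matched), and promoter windows from RefSeq.

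The genes and lists were chosen with earlier results of these data known. Named are all 6 members, list genes past the threshold, their direct partners, and the 3 genes most like each member, and a few list genes that missed the threshold were named after their values were seen. The comparison of both libraries of a 6m mouse for each gene was also added after the data were seen. Alternatives were DESeq2 1.42.0, limma-voom (limma 3.58.1), DESeq2 size factors, upper-quartile scaling, no filter, at least 10 counts in every library, the 6m libraries of the other run, removal of the length and GC trend (spline, 5 degrees of freedom), a fit of all libraries, the mouse as a block, and leaving out each mouse. Leaving out mice 4 and 5 at 24m together and the lists with the length and GC trend removed were added after the data were seen. The tests across genes were checked on simulated counts with known changes. Results for some genes are not reported, though the counts of their lists include them. Figures used matplotlib 3.10.9 in Python 3.11.15.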

Additional observations from a re-analysis of the deposited data

Results flagged for a closer look

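A single mouse far from the rest of its group was found in 12 of 24 groups of CPM values by Dixon's criterion. Its usual rate of about 1 of 20 groups assumes independent groups of normally distributed values. The CPM values were skewed and the groups share mice, so that rate does not apply here. Of the 12, 7 were the highest or lowest values of old mice. Runx1 and Ncam1 were both highest in mouse 6 at 28m, at 31.1 and 34.95 CPM. Ncam1 at 60.3 CPM and Chrna9 at 2.75 CPM were highest in mouse 5 at 24m. Uchl1 at 73.1 CPM was highest and Scn4a at 70.3 CPM lowest in mouse 4 at 24m, whose library had the lowest length slope. Chrna9 at 28m was highest in mouse 7, at 1.69 CPM, the mouse with the most immune marker RNA.

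At 6m, Ncam1 was highest in mouse 2 in both of its libraries, at 8.71 CPM in the first run and 9.02 CPM in the second. Chrna9 was highest in mouse 3 in both of its libraries, at 0.670 CPM and 0.451 CPM. Scn4a in the second run was lowest in mouse 2, at 606 CPM.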

How the results depend on the processing

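Over the alternatives, Runx1, Uchl1 and Chrna9 at 28m kept their direction and passed in each of the settings that tested them, with ranges of 1.43 to 2.0, 1.86 to 2.26 and 1.64 to 1.91 on the log2 scale. Leaving out each mouse in turn, Runx1, Scn4a and Uchl1 passed in 15 of 15 fits and Chrna9 in the 9 fits that kept it above the filter. Ncam1 at 28m passed with DESeq2 (0.92), upper-quartile scaling (0.955) and the length and GC trend removed (1.23), and in 3 of 15 fits without a mouse, which ranged from 0.39 to 1.06. Scn4a at 28m missed the threshold against the 6m libraries of the other run (-0.89), where the genes called fell from 6140 to 2981. At 24m the number of members called was 3 with DESeq2 (Runx1 2.87, Ncam1 1.65, Uchl1 2.55) and 2 in the fit of all libraries (Runx1 2.89, Uchl1 2.57), and 0 in each fit without a mouse. Genes called at 24m numbered 11, against 215 with DESeq2, 152 in the fit of all libraries, 46 with the other run's 6m libraries, 17 without the length and GC trend, 4 with at least 10 counts, 4 to 30 without a mouse, 37 without mice 4 and 5 and 121 without mouse 4 and the first 6m library of mouse 4, both chosen after seeing the data. The causes were not tested.

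None of the differences between the 28m and 24m effects passed in any setting, and several changed sign. That of Uchl1 was 0.29 with limma-voom and 0.29 with the mouse as a replicate block, and without one mouse it ranged from -0.62 to 0.62. Without one mouse those of Ncam1, Tnfrsf12a and Chrna9 ranged from -1.25 to 0.10, -0.12 to 0.26 and -0.57 to 0.96. Without mouse 4 at 24m, 1657 genes and none of the members passed. Chosen after seeing the data, leaving out mice 4 and 5 at 24m and the first 6m library of mouse 4 gave 0.33 for Runx1, 0.36 for Ncam1, 1.49 for Uchl1 and 1.19 for Chrna9. With the mouse as a block, the comparison of the 6m libraries called no gene either, and Runx1, Ncam1 and Scn4a were at 0.20, 0.175 and 0.28. Without one mouse, Uchl1 between runs ranged from -0.13 to 0.076. Without the 2 mice farthest from the median, the number of correlated pairs at 24m was 0, at an r of 0.980 for Runx1 with Ncam1 and 0.860 for Ncam1 with Chrna9, and 5 mice leave the adjusted test little room to pass. Depth limits Chrna9 most, at 0 to 15 counts per library at 6m.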
